A study of Mus musculus with 6 samples.

Results

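Nodal, its relative Gdf3, the co-receptor Tdgf1, the secreted inhibitors Lefty1, Lefty2 and Cer1, and the intracellular mediators Smad2, Smad3 and Foxh1 were examined in mouse embryonic stem (ES) cells with and without Dicer. These 9 genes are read by 17 of the 45037 probe sets measured, a probe set being a group of short array probes for 1 transcript; each of the 17 carries that gene as its single symbol in the platform annotation. The study placed total RNA, amplified into biotin-labelled cRNA, on Affymetrix expression arrays. There were 3 arrays of a Dicer +/- line called D4 and 3 of a Dicer -/- line called 27H (27H10 in the series title), both kept undifferentiated, and they are named heterozygous and null cells here. Each genotype is 1 cell line, so genotype and line cannot be told apart, and the heterozygous cells already carry 1 altered Dicer copy. Whether arrays of 1 line stem from separate cultures is not in the labels; the tests therefore measure the spread between these arrays alone, which may be technical.

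Nodal is a secreted ligand of the TGF-beta family that forms the anterior-posterior axis, mesoderm and endoderm in the embryo. With the co-receptor Tdgf1 (Cripto) it engages activin receptors, which phosphorylate Smad2 and Smad3; these join Smad4 and are brought to target genes by the forkhead factor Foxh1. Nodal itself and both Lefty genes are among those targets, and the Lefty proteins block Nodal outside the cell, so the pathway holds a positive and a negative loop. Mouse ES cells express and secrete members of this pathway.

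Dicer cuts microRNA precursors into mature microRNAs. Members of the miR-290 and miR-302 clusters are abundant in ES cells and early epiblast, and several share 1 seed, the stretch that pairs with targets. In zebrafish, a microRNA family with a related seed acts on transcripts of a Nodal ligand and of a Lefty inhibitor. The mature sequences of 5 mouse members are shown, from RefSeq (GRCm38.p6), because they are products of the enzyme the null cells lack; capitals mark the seed, bases 2 to 8. The arrays did not measure them, and no target site was searched.
miR-291a-3p: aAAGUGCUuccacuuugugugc
miR-294-3p: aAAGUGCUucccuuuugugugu
miR-295-3p: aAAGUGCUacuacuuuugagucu
miR-302b-3p: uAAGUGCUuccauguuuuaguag
miR-302d-3p: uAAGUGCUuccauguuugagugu
The first 3 lie in the cluster on chromosome 7 and the other 2 in that on chromosome 3, and all 5 hold the seed AAGUGCU.

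Values are intensities in arbitrary units on a linear scale. Across the probe sets tested, which are not independent replicates, log2 values correlated at 0.957 to 0.964 between arrays of a line and at 0.918 to 0.923 between arrays of different lines. Dicer1 transcript did not pass the test in either of its probe sets. With the brighter of them, 1427941_at, heterozygous cells had a mean of 1098 ± 39.2 and null cells one of 1197 ± 62.2 (SD, n = 3; limma adjusted p 0.264). The labels do not name the deleted part of the gene, so this checks nothing about the genotype. ES cell markers were strong in both lines by the brightest probe set of each gene. Of 9, 1 was higher and 1 lower in null cells at an adjusted p under 0.05, against 23.2% and 23.1% of all genes. Esrrb and Klf4 did not pass by that probe set, but each had a dimmer one that was lower in all null arrays. The log2 differences there were -1.45 and -0.53 (limma adjusted p 4.33e-05 and 0.00139). Another Esrrb probe set was at 0.10 and did not pass. The summed intensity of the 9 markers, by brightest probe set, was 92921 to 97217 in heterozygous and 88074 to 94290 in null arrays.

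In null cells the transcripts of Nodal and Tdgf1 fell, and those of Lefty1, Lefty2, Gdf3 and Smad2 rose. The calls of Tdgf1 and Lefty1 did not hold under every way of processing the data. Cer1 was at background in every array, and no probe set of Foxh1 or Smad3 passed the test. Of the 17 probe sets, 15 passed the filter on low values, which asked for an intensity of 32 or more (5 as a log2 value) on at least 3 arrays, and 14 of them were over it on all 6. Of these 15, 6 were higher and 3 lower in null cells at a limma adjusted p under 0.05, 9 in all, against 18.9% higher and 21.2% lower, 40.1% in either direction, among all 26545 probe sets tested. Of these, 1 higher probe set, of Smad2, and 0 lower ones also reached the log2 difference of 1 that marks a 2-fold change, against 5.97% higher and 6.32% lower, or 12.3% in either direction, of all probe sets tested. The null arrays all lay above the heterozygous arrays for 8 of the 15 and all under them for 3, against 23.6% and 27.7% of all probe sets, 51.3% in either direction. The median difference was 0.26 over the 15 and -0.06 over all probe sets tested. With each array centred on its own median, the counts were 10 higher and 2 lower, while those over all probe sets moved from 5013 higher and 5620 lower to 6777 and 3740; the median over all probe sets then shifted to 0.10.

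**Figure D1:**
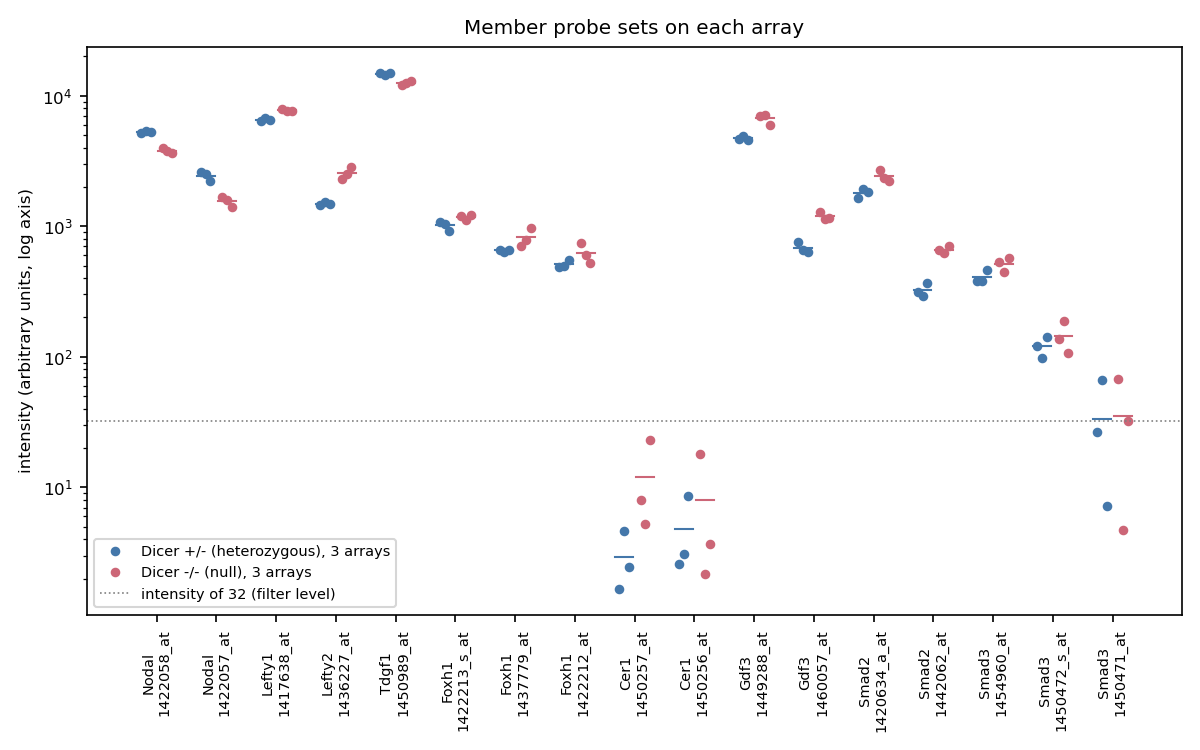
Intensity of the 17 member probe sets on each array, on a log axis (arbitrary units); blue points are the 3 heterozygous arrays, red points the 3 null arrays, short lines their means, and the dotted line marks an intensity of 32. Both Nodal probe sets lie lower and those of Lefty2, Gdf3 and Smad2 higher in all null arrays, and both Cer1 probe sets lie under 32 in every array. Levels of different probe sets cannot be compared.

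Nodal, the ligand for which the pathway is named, was lower in null cells in both of its probe sets. The probe set 1422058_at read 5198, 5343 and 5262 in the heterozygous arrays and 3962, 3734 and 3646 in the null arrays. All 3 null arrays lay under all heterozygous arrays. The means were 5267 ± 72.7 and 3780 ± 163 (SD, n = 3), 1.39-fold lower in null cells, with a log2 difference of -0.48 ± 0.06 (SE) and a limma adjusted p of 0.000172. The second probe set, 1422057_at, read 2578, 2510 and 2230 in heterozygous and 1681, 1580 and 1413 in null arrays, again without overlap. Its log2 difference was -0.65 ± 0.09 (SE; limma adjusted p 0.000257), 1.57-fold lower. The difference between the probe sets in log2 change, -0.17, had an exact two-sided permutation p of 0.2. Nodal lies on chromosome 10, where the median log2 difference was -0.07 over 628 tested genes. Among all 12927 genes tested, 22.9% had a lower difference than Nodal.

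Gdf3, a ligand of the same family that signals through Tdgf1 and can also inhibit BMP proteins, was higher in null cells in both probe sets. The brighter, 1449288_at, read 4627, 4914 and 4577 in heterozygous and 7018, 7060 and 5963 in null arrays. Every null array exceeded every heterozygous array, and the log2 difference was 0.50 ± 0.08 (SE), or 1.42-fold (limma adjusted p 0.000519). The other, 1460057_at, read 758, 662 and 629 against 1278, 1128 and 1158. There the arrays did not overlap either, at a log2 difference of 0.80 ± 0.10 (SE), or 1.74-fold (limma adjusted p 0.000125). Both ligands were thus read by a pair of probe sets that moved in 1 direction, Nodal lower and Gdf3 higher.

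Lefty2, a secreted inhibitor of Nodal, rose most among the members by brightest probe set. Its only probe set, 1436227_at, read 1459, 1538 and 1478 in heterozygous and 2303, 2520 and 2825 in null arrays. The groups did not overlap, and the null arrays were spread more widely. The means were 1492 ± 41.2 and 2549 ± 262 (SD, n = 3), a log2 difference of 0.77 ± 0.09 (SE). Its paralogue Lefty1 (1417638_at) moved by less. It read 6443, 6727 and 6463 in heterozygous and 7913, 7620 and 7667 in null arrays, also without overlap, a log2 difference of 0.24 ± 0.06 (SE). The limma adjusted p was 6.25e-05 for Lefty2 and 0.00712 for Lefty1.

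The Lefty genes lie side by side on chromosome 1, with 0 tested genes between them, and that chromosome and chromosome 11 stood apart in these lines. The 724 tested genes of chromosome 1 had a median log2 difference of 0.31, and 44.5% of them were higher in null cells at an adjusted p under 0.05, against 23.2% of all genes. On chromosome 11 the median was 0.29, and on the other chromosomes medians ran from -0.15 to -0.01. Among the genes of chromosome 1, 75.6% had a lower difference than Lefty2 and 43.8% a lower one than Lefty1. Of the 10 nearest tested neighbours of the pair, 5 on each side, 7 were higher and 1, Mixl1, was lower at an adjusted p under 0.05, with a median of 0.39. The neighbour that rose most was Ephx1, an epoxide hydrolase, from a mean of 409 to 1006 (log2 difference 1.30). Neighbours were examined after the values of the chromosome were seen. With each chromosome centred within each array, Lefty2 remained higher at 0.43 (limma adjusted p 0.00331; range over its 19 alternatives 4.1e-06 to 0.005). Lefty1 turned to -0.10 with a limma adjusted p of 0.205 (range over its alternatives 0.000854 to 0.205). The higher Lefty1 signal therefore did not exceed the shift of its chromosome.

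**Figure D2:**
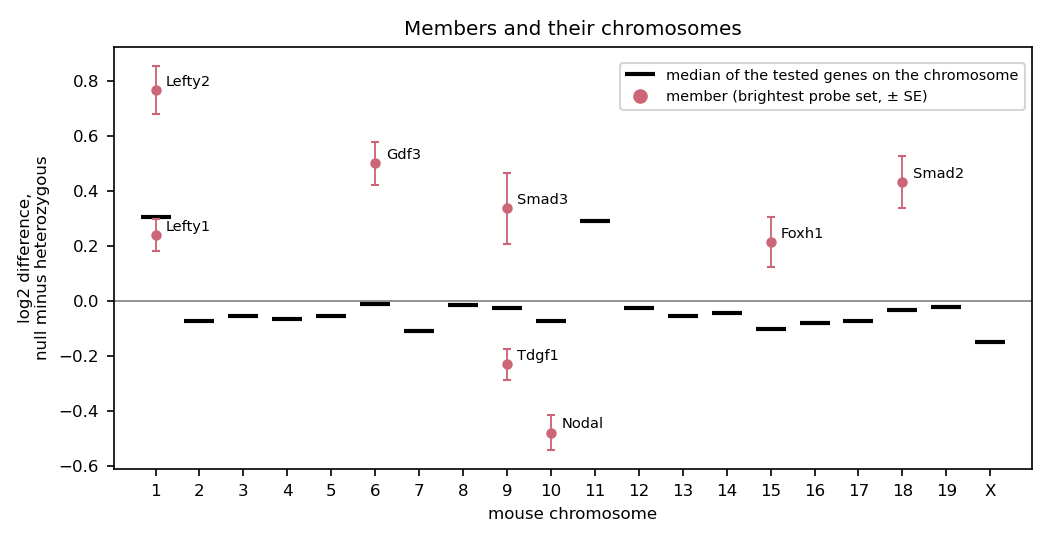
Log2 difference, null minus heterozygous, of each tested member by its brightest probe set (red points, ± SE of the limma fit) above its mouse chromosome, with black bars for the median of the tested genes of each chromosome. Lefty1 sits just under the median of chromosome 1 (0.24 against 0.31), Lefty2 above it at 0.77, and Nodal lies under the median of chromosome 10.

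Cer1, a secreted antagonist that binds Nodal and BMP proteins, was not measurable. Its probe set 1450257_at read 1.67, 4.60 and 2.47 in heterozygous and 7.94, 5.20 and 22.9 in null arrays, and 1450256_at read 2.15 to 18.1 over the 6 arrays. All of these values lie under 32, so neither probe set was tested and no fold is given.

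Within an array, the ratio of Nodal to each Lefty inhibitor was lower in null cells, whatever the scaling of the array. Such a ratio shows unequal change of 2 genes, not opposite directions. The log2 ratio of Nodal to Lefty2 was 1.83, 1.80 and 1.83 in heterozygous arrays and 0.78, 0.57 and 0.37 in null arrays. The mean ratio fell by 1.25 on the log2 scale, a change of 2.37-fold. The ratio of Nodal to Lefty1 went from -0.31 ± 0.02 to -1.03 ± 0.04 (SD, n = 3), a difference of -0.72. The ratio of Lefty2 to Lefty1 went from -2.13 ± 0.01 to -1.61 ± 0.17, a difference of 0.53. In each of the 3 ratios all null arrays lay to 1 side of all heterozygous arrays, and the exact two-sided permutation p was 0.1, the smallest that 3 arrays against 3 allow. As the probes differ, only the changes of these ratios can be read, not their levels. With chromosomes centred within arrays the differences were -0.84 for Nodal to Lefty2 and -0.31 for Nodal to Lefty1, the latter down from -0.72; the ratio within the Lefty pair stayed at 0.53.

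**Figure D3:**
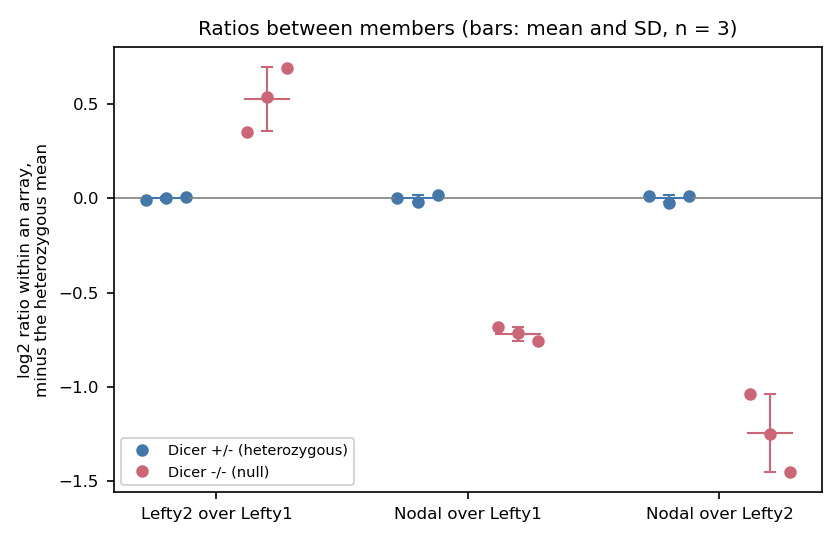
Log2 ratio of 2 members within each array, minus the heterozygous mean of that ratio; points are arrays (blue heterozygous, red null) and bars show the mean and SD of 3 arrays. Null arrays lie above the heterozygous arrays for Lefty2 over Lefty1 and under them for both ratios of Nodal, at mean differences of 0.53, -0.72 and -1.25.

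Tdgf1, the membrane-anchored co-receptor that Nodal and Gdf3 need, was lower in null cells by a small amount. The probe set 1450989_at read 14887, 14268 and 14951 in heterozygous and 12141, 12424 and 13045 in null arrays. The groups did not overlap, at means of 14702 ± 377 and 12537 ± 462 (SD, n = 3). The log2 difference was -0.23 ± 0.06 (SE; limma adjusted p 0.00845), 1.17-fold lower. It depended on the scaling: with arrays centred on their medians it was -0.08 with a limma adjusted p of 0.403 (range over 19 alternatives 0.00193 to 0.403).

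Nodal and Tdgf1 are the members that fell, and the RefSeq promoters of both (GRCm38.p6, 250 bases before to 50 after the gene's start) are shown for that reason; 4 of the 9 genes had an entry. The Nodal window is chr10:61417722-61418021 on the plus strand and the Tdgf1 window chr9:110946109-110946408 on the minus strand. Both strands were searched for AATCCACA and AATACACA, forms of the Foxh1 motif held by 0.855% and 0.98% of all 32851 promoter windows. They were also searched for CAGAC, a SMAD motif held by 49.6% of them; none of the 3 strings contains another. Capitals mark CAGAC on either strand.
Nodal: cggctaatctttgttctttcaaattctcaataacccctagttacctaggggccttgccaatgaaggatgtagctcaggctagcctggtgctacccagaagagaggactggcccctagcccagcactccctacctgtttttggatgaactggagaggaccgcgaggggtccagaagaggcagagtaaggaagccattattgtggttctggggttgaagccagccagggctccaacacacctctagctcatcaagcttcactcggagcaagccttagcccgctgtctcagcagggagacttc
Tdgf1: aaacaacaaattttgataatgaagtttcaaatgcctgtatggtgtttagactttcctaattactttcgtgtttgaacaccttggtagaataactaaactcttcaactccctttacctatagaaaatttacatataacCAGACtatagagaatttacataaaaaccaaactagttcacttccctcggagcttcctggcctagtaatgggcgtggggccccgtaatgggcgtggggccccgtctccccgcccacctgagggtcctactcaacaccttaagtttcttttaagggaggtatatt
Tdgf1 held CAGAC once, 113 bases before its start, and Nodal did not hold it; the Foxh1 forms were in neither window. A match is only a string of letters, and a missing one says nothing of binding elsewhere.

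Smad2, which carries the signal from the activated receptor to the nucleus, was higher in null cells in both probe sets, by unequal amounts. The probe set 1420634_a_at read 1644, 1922 and 1821 in heterozygous and 2706, 2355 and 2225 in null arrays. No null array fell within the heterozygous range, and the log2 difference was 0.43 ± 0.09 (SE; limma adjusted p 0.00403), a fold of 1.35. The dimmer 1442062_at read 311, 291 and 370 in heterozygous and 662, 619 and 703 in null arrays. Its log2 difference was 1.04 ± 0.12 (SE; limma adjusted p 8e-05), a fold of 2.05. It was short of 2-fold without heterozygous replicate 2 (0.96) and without null replicate 3 (0.99). The log2 ratio of the dimmer to the brighter probe set was higher in every null array, by 0.60 on average, with an exact two-sided permutation p of 0.1, the smallest possible here.

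Smad3, the other receptor-activated Smad of this pathway, did not pass the test. The brightest probe set, 1454960_at, read 383, 383 and 461 in heterozygous and 533, 450 and 569 in null arrays. The groups overlapped slightly, and the log2 difference was 0.34 ± 0.13 (SE; limma adjusted p 0.0611). It passed in 7 of its 19 alternatives, with adjusted p values from 0.00898 to 0.725. The other probe sets, 1450472_s_at and 1450471_at, had log2 differences of 0.23 ± 0.25 and -0.10 ± 1.15 (SE). The last of these ran from 4.71 to 68.0 over the 6 arrays and reached 32 in only 3 of them, and its sign turned in 4 of 13 alternatives.

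Foxh1, the forkhead factor that recruits Smad complexes to Nodal and Lefty2, gave 3 positive differences, none past the test. The probe set 1422213_s_at read 1078, 1044 and 926 in heterozygous and 1193, 1117 and 1222 in null arrays, which did not overlap. Its log2 difference was 0.21 ± 0.09 (SE; limma adjusted p 0.0838). The values were 0.32 ± 0.12 for 1437779_at and 0.26 ± 0.13 for 1422212_at, at a limma adjusted p of 0.0544 and 0.149. The null arrays of 1422212_at ranged from 522 to 741, wider than the heterozygous range of 491 to 549. With arrays centred on their medians all 3 passed, at limma adjusted p values of 0.0147, 0.0104 and 0.0251, and so they did with each chromosome centred (0.0137, 0.0147 and 0.0464). With the replicate number as a block 1437779_at passed (limma adjusted p 0.0216). Passing alternatives numbered 3 of 18 for 1422213_s_at, 6 of 17 for 1437779_at and 3 of 17 for 1422212_at. Over all their alternatives limma adjusted p ran from 0.0104 to 0.466.

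**Figure D4:**
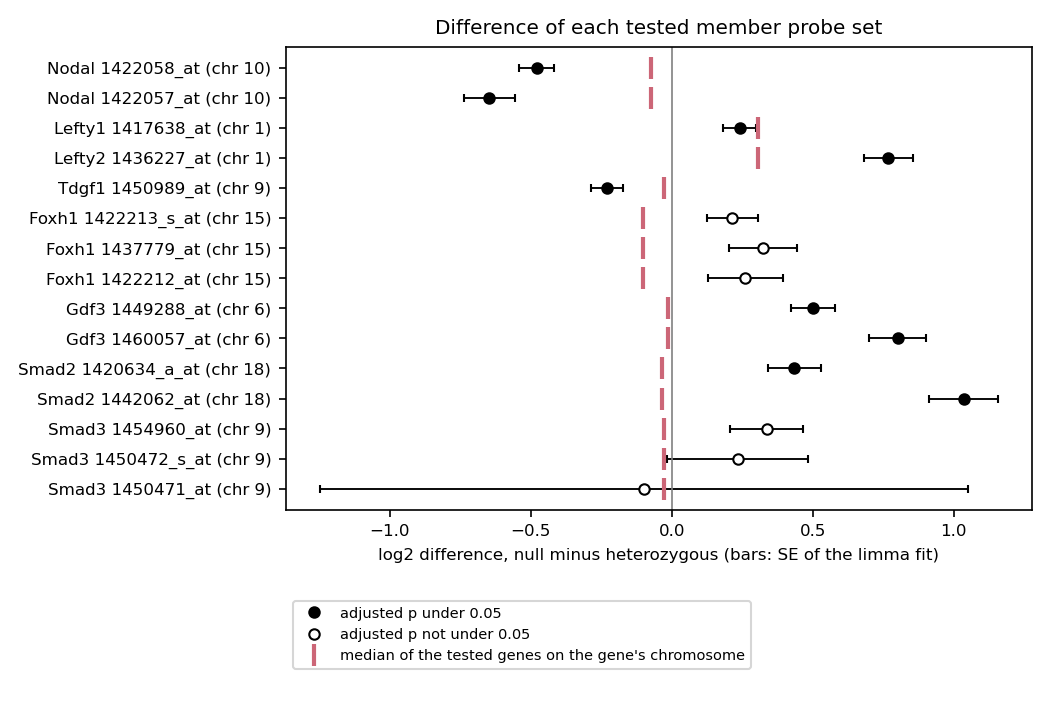
Log2 difference, null minus heterozygous, of the 15 tested member probe sets (bars: SE of the limma fit); filled points had an adjusted p under 0.05, and red ticks give the median of the tested genes on the gene's chromosome. Nodal and Tdgf1 lie left of 0, and Lefty2, Gdf3 and Smad2 lie right of 0 and of their chromosome's median, while Lefty1 lies under its chromosome's median.

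Genes with the pattern most like Nodal and Lefty2 over the 6 arrays were found by Pearson's r of log2 values, 1 probe set a gene, among 16191 probe sets with a group mean log2 of at least 7. For Nodal these were Psrc1, Satb1 and Nkain1, each with r of 0.999. Satb1, a chromatin organiser, went from a mean of 239 to 56.6, Psrc1, a microtubule-associated protein, from 4952 to 3657 and Nkain1 from 1445 to 882. For Lefty2 they were Fastkd2, a mitochondrial RNA-binding protein, the glycosidase Ctbs and the cytokine Il7, each with r of 0.998. Fastkd2, on chromosome 1, went from a mean of 2099 to 3006. Since the lines differ at many genes, r was at least 0.95 for 11.5% of probe sets with Nodal and 9.5% with Lefty2, so these likenesses mostly restate the difference between the lines.

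Around the members, other genes of Nodal and activin signalling moved in both directions. The list holds 37 genes, of which 30 could be tested by their brightest probe set; Inhba, Fstl3, Gsc and Fgf8 were under the filter, and the remaining 3 were not analysed here. Of the 30, 8 were higher and 8 lower at a limma adjusted p under 0.05, against 23.2% higher and 23.1% lower, 46.3% in either direction, among all 12927 genes. The median was -0.04, against -0.01 over all genes. A log2 difference of 1 was passed by 1 of them upward and 1 downward, against 7.1% and 6.06% of all genes, 13.2% in either direction.

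The gene that rose past 2-fold was Inhbb, which encodes the beta B subunit of activin and inhibin. Its mean was 534 ± 42.3 in the heterozygous line and 1336 ± 77.7 in the null line (SD, n = 3), with a log2 difference of 1.32 ± 0.10 (SE; limma adjusted p 3.27e-06). It also lies on chromosome 1 and was at 0.98 with chromosomes centred. The gene that fell past 2-fold was Fst, which encodes follistatin, a secreted protein that binds and blocks activins. Its mean was 468 ± 30.2 in heterozygous and 124 ± 19.2 in null cells (SD over 3 arrays), with a log2 difference of -1.92 ± 0.15 (SE; limma adjusted p 6.22e-06), and its second probe set was 4.02-fold lower. Inhbb was higher and Fst lower in all null arrays, and activin activity was not measured.

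Of 6 receptors, 2 rose and 1 fell, against 23.2% and 23.1% of all genes. The TGF-beta receptors Tgfbr2 and Tgfbr1 were higher by 0.81 and 0.59 on the log2 scale (limma adjusted p 0.00675 and 0.0135). Tgfbr1 did not pass without heterozygous replicate 1 (limma adjusted p 0.0562, range over its alternatives 4.28e-05 to 0.0823). The dimmer Tgfbr1 probe sets were at -0.16 and 0.34 (limma adjusted p 0.728 and 0.337). Neither passed, so the Tgfbr1 call rests on the brightest. The activin type I receptor Acvr1b, through which Nodal signals and which is named after its value was seen, was lower by a small amount, with a log2 difference of -0.34 (limma adjusted p 0.0107), or -0.18 with arrays centred on their medians (0.186; range over its alternatives 0.00624 to 0.186). Acvr2a and Acvr2b, its type II partners, likewise named afterwards, had differences of 0.19 and -0.13 that did not pass. Cfc1 (Cryptic), a co-receptor related to Tdgf1, was higher, at means of 157 and 238 (log2 difference 0.60). It lies on chromosome 1 and was at 0.26 with chromosomes centred (limma adjusted p 0.227; range 0.00356 to 0.227).

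Among 4 mediators and partners, Drap1, a transcriptional corepressor that limits Nodal activity through Foxh1, was higher (1577 ± 18.4 and 2390 ± 208; SD, n = 3; log2 difference 0.60). Trim33, a ubiquitin ligase that binds Smad proteins, was lower at -0.25, or -0.10 with arrays centred on their medians (limma adjusted p 0.0204 and 0.403; range 0.00462 to 0.403), and its second probe set was at -0.05. Smad4, the partner of Smad2 and Smad3 and also named afterwards, read 3231 ± 284 and 3373 ± 626 and did not pass. Of 9 inhibitors tested, 2 rose and 3 fell, against 23.2% and 23.1% of all genes. Besides Fst, the ubiquitin ligase Smurf2, which targets Smad proteins, differed by 0.57 with its brightest probe set. Smurf2 lies on chromosome 11 and was at 0.28 with chromosomes centred, and its other probe sets had folds of 1.10 and 1.15. Named after their values were seen, the ubiquitin ligase Wwp2 was higher at 0.57, and the Smad corepressor Tgif1 and the Smad phosphatase Ppm1a were lower at -0.43 and -0.35 (limma adjusted p 0.000538, 0.00159 and 0.00286). The probe sets of Ppm1a disagreed, since others of them had positive differences that did not pass, so its call rests on the brightest. That call was also lost with each array centred on its median (-0.20, limma adjusted p 0.084; range over its alternatives 0.000394 to 0.084). The convertases Furin and Pcsk6, which cleave the Nodal precursor, had differences of 0.27 and 0.31 and did not pass (0.268 and 0.0536).

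Of 7 targets tested, 1 rose and 3 fell, against 23.2% and 23.1% of all genes. Mixl1 and Eomes, transcription factors of the primitive streak that Nodal induces in the embryo, were lower at low intensities. Mixl1 went from 113 ± 24.5 to 56.7 ± 5.95 and Eomes from 244 ± 18.5 to 166 ± 43.3 (SD, n = 3), log2 differences of -0.98 and -0.58. The limma adjusted p values were 0.0144 and 0.0378, and without heterozygous replicate 1 they were 0.0747 and 0.0724. Eomes was at -0.43 after centring each array on its median (limma adjusted p 0.112, range over its alternatives 0.00688 to 0.126). The other Eomes probe set was lower in all null arrays at -0.76 (limma adjusted p 0.00571). Its values under the alternatives are not given here. Named after their values were seen, Smad7, an inhibitory Smad, was lower at -0.52 and Pmepa1, an inhibitor that sequesters Smad2 and Smad3, higher at 0.52. Smad7's second probe set was at 0.34 and did not pass. Skil, named likewise, which encodes the Smad corepressor SnoN, had probe sets that disagreed. The brightest read 5030 ± 78.8 and 5034 ± 124 (SD, n = 3), and the dimmer 1422054_a_at read 409 ± 31.6 and 187 ± 1.64, lower in all null arrays at a log2 difference of -1.13 (limma adjusted p 5.69e-05).

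**Figure D5:**
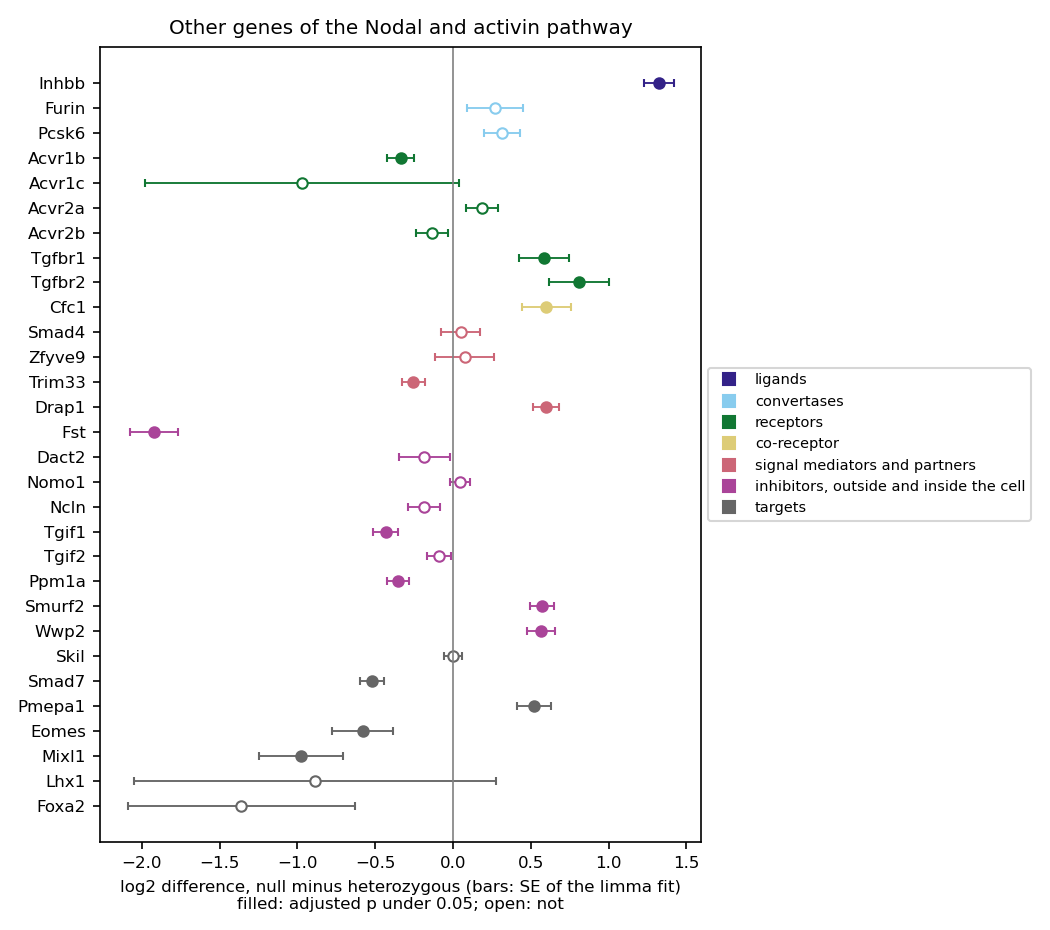
Log2 difference, null minus heterozygous, of the 30 tested genes of the Nodal and activin pathway list that are not members, by brightest probe set (bars: SE of the limma fit), coloured by role; filled points had an adjusted p under 0.05. Inhbb stands out on the right at 1.32 and Fst on the left at -1.92.

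Markers of other cell types were also measured, and their counts are to be read against the 23.2% of all genes that were higher and the 23.1% that were lower, 46.3% in all. Primitive and visceral endoderm can express Nodal, Lefty1 and Cer1: of 12 markers, 10 were tested, 0 rose and 4 fell, at a summed intensity of 1622 to 2196 in heterozygous and 842 to 925 in null arrays, and the marker Ttr was under 32 in every array. Of 5 primed epiblast markers 1 rose and 4 fell (9376 to 10457 against 6294 to 6585). Of 6 tested markers of the primitive streak, 1 rose and 2 fell (518 to 653 against 444 to 624, over 7 markers). Of 6 tested fibroblast markers, 1 rose and 2 fell (432 to 472 against 470 to 584, over 8). The higher sum in null arrays came from Dcn, which went from a mean of 31.0 to 263. Lower in all null arrays were 4 of the 6, Col1a1, Col1a2, Col3a1 and Thy1, against 3740 of all 12927 genes by brightest probe set. Col1a2 and Col3a1 did not pass the test (limma adjusted p 0.101 and 0.178). The null means of Col1a1, Col1a2 and Col3a1 were 6.62, 36.9 and 25.7, near or under 32. Postn was under 32 in every array. In bulk RNA, fewer cells of a type and less transcript per cell cannot be told apart, and the part of these markers in the differences of Nodal and its inhibitors was not tested.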

How the data were processed

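The deposited intensities are linear, per the values themselves: the authors' 6 columns each have a mean of 500 after trimming 2% at each end, and their medians run from 44.9 to 52.7. GCRMA is named in the submitters' processing notes, with the step not given in the sources used here; the values are neither on a log scale nor quantile normalized. The 64 control probe sets were left out, and 34945 others carried 1 gene symbol, 932 several and 9160 none.

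Log2 values of the 26545 probe sets that reached 5 in at least 3 arrays were fitted with limma 3.58.1 in R 4.3.3 (lmFit, eBayes with an intensity trend, group as the only term, two-sided), adjusted over all of them by Benjamini-Hochberg. Differences are null minus heterozygous. A gene is read by its brightest tested probe set. The number of arrays limits the precision, and the fit was tested on simulated data. The labels give 1 day of analysis for all arrays; no other batch is known. Named genes are all members, list genes past both thresholds and up to 2 per role at an adjusted p under 0.05; others are marked. The likeness rule took 3 genes each for Nodal and Lefty2. Members and lists were chosen with earlier results of these data known. Gene names and chromosomes come from assembly GRCm38.p6. Alternatives were other filters, priors, normalizations, probe set rules, array weights, a replicate block and leaving out each array; centring chromosomes and ratios between probe sets of 1 gene were added after seeing the data.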

Additional observations from a re-analysis of the deposited data

How the results depend on the processing

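Both Nodal probe sets, Lefty2, both Gdf3 probe sets and both Smad2 probe sets kept their direction and an adjusted p under 0.05 in every alternative run, 17 to 19 each. Lefty1 was -0.10 with chromosomes centred; it and Tdgf1 did not pass with eBayes without a trend (limma adjusted p 0.0556 and 0.0715). The lowest Smad3 probe set, 1450471_at, turned to 0.018 with values under 32 raised to 32, to 0.11 with quantile normalization and to 0.056 with each array centred on its median, and ranged from -0.94 to 1.01 when single arrays were left out (1.01 without null replicate 2); the cause was not tested. With arrays centred on their medians, 10 member probe sets were higher, 1 member gene and 4 list genes lower, and 3740 of all probe sets lower. The member genes called lower were also 1 with eBayes without a trend. Without probe sets that share sequence, 1 member gene (Smad2, through its other probe set) passed both thresholds. With chromosomes centred, 0 list genes were higher and 2 lower past both thresholds. With a filter at log2 7, which tests fewer probe sets, 980 were lower past both. Leaving out 1 array at a time gave 6 to 7 member probe sets higher and 3 to 3 lower, 0 to 1 higher past both thresholds, 5 to 8 list genes lower (5 without heterozygous replicate 1) and 1 to 2 lower past both thresholds. The ratios then ranged from 0.44 to 0.61 (Lefty2 over Lefty1), -0.74 to -0.70 (Nodal over Lefty1) and -1.35 to -1.15 (Nodal over Lefty2). The labels do not say what arrays of like number have in common. Their deviations from the group means correlated weakly (0.03, 0.03 and 0.08), but each array was closest to its own number. A shared step was therefore possible and was not tested. A fit with the replicate number as a block gave 8 member probe sets higher and 3 lower. Within replicate numbers the ratios kept their differences at an exact p of 0.25, the smallest possible for 3 pairs. Intensities near 32 cannot be told from background here.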
